A study of Mus musculus with 9 samples.

Results

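The 8 genes described here encode the mouse Fc gamma receptors (Fcgr1, Fcgr2b, Fcgr3 and Fcgr4), the adaptor chains that lend such receptors a signal (Fcer1g, Tyrobp and Hcst) and the kinase Syk. They were chosen by name as a receptor and adaptor family, and all 8 were found among the 19698 named genes of the array. Each was read by 1 probe, and every probe was well above background on all 9 arrays.

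Fc gamma receptors bind the constant part of IgG, so that macrophages, monocytes and neutrophils can take up or answer to antibody-coated material. Fcgr1, Fcgr3 and Fcgr4 are activating receptors without a signaling motif of their own in the mouse, and they associate with the Fcer1g chain, whose immunoreceptor tyrosine-based activation motif (ITAM) is phosphorylated and then docks Syk. Fcgr2b is the inhibitory member and carries an inhibitory motif (ITIM). Tyrobp (DAP12) is a second ITAM adaptor, used by receptors such as Trem2, while Hcst (DAP10) carries a motif that recruits phosphatidylinositol 3-kinase and serves the receptor NKG2D. In lung, alveolar and interstitial macrophages are a main site of these genes.

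RNA came from lung of male C57BL/6 mice, 10 weeks old per the labels, in 4 Control and 5 Irradiated samples, each on its own single-color array. In the Irradiated group the left lung received a single dose of radiation. The labels describe anesthesia with zoletil and rompun during irradiation in the same words for both groups. For a single array neither the dose nor the region or time after exposure is labeled, and per the study's methods RNA of repeated experiments was pooled, so arrays named as replicates may differ in condition and p-values measure only the spread between these arrays. All 10 lung tissue markers, among them Sftpc, the surfactant protein C gene of alveolar type II cells and the brightest of the list, were well above background on every array. Sftpc lies among the brightest probes, where quantile normalization fixes the values, so its level is not read as a comparison of the groups.

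The share of spots well above background ran from 72.8% to 89.1% over the arrays, and no spot was saturated. 3 arrays stood apart by marker genes of other tissue: the array Control 3 was high in skeletal muscle genes, Irradiated 1 was low in cardiac muscle genes, and Control 3 and Irradiated 1 were the lowest arrays of their groups for B and plasma cell genes, with Control 2 low in mast cell genes. Scanner measures (local background and the position of the first row of spots) also ordered 8 of the arrays in 4 pairs, each of 1 Control and 1 Irradiated array: Control 1 with Irradiated 2, Control 2 with Irradiated 3, Control 3 with Irradiated 4 and Control 4 with Irradiated 5. The files do not name these as batches, and Irradiated 1 had no partner.

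The genes lie in few places of the genome. In the RefSeq annotation of GRCm38.p6, Fcgr2b, Fcgr4 and Fcgr3 follow each other on chromosome 1, with Fcer1g further along that chromosome and 9 protein-coding genes between Fcgr2b and Fcer1g, Fcgr4 and Fcgr3 included. Tyrobp and Hcst are direct neighbors on chromosome 7, Fcgr1 is on chromosome 3 and Syk on chromosome 13.

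The 150 bases before the RefSeq start of transcription are shown for the 4 receptors, which gave the highest differences among the 8 genes, and for Fcer1g and Hcst, which did not. Capitals mark GGAAGT on either strand (ACTTCC when read from the other), the core of binding sites for ETS factors such as the myeloid factor PU.1.
Fcgr1, chr3:96293970-96294119, minus strand: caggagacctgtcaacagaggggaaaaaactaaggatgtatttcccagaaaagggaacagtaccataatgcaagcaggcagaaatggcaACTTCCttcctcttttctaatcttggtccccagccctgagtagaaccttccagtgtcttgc
Fcgr2b, chr1:170976072-170976221, minus strand: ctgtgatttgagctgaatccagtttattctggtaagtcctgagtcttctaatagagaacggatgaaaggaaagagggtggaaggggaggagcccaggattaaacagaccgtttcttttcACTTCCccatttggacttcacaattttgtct
Fcgr3, chr1:171059404-171059553, minus strand: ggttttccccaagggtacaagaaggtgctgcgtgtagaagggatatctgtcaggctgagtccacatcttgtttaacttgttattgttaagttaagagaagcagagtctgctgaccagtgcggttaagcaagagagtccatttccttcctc
Fcgr4, chr1:171018776-171018925, plus strand: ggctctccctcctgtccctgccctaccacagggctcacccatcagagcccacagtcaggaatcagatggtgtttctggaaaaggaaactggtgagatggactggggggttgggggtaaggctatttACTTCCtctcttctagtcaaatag
Fcer1g, chr1:171234350-171234499, minus strand: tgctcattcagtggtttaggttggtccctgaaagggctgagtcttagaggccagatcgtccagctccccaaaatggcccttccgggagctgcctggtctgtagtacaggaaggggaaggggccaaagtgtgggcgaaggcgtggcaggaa
Hcst, chr7:30419855-30420004, minus strand: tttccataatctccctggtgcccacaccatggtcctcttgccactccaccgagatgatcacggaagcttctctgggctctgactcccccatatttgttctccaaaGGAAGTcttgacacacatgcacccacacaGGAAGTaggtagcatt

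Over the 250 bases before the start, GGAAGT was found in 4 of the 7 genes that have an entry in the promoter table (Fcgr1, Fcgr2b, Fcgr4 and Hcst), and in 19.7% of the 32851 promoters of the table. The letters thus occur both in genes with a higher mean in Irradiated arrays and in Hcst, whose mean did not differ. A match describes letters in a window and is not evidence of binding. Fcgr3 and Syk have 2 starts each in the table, none of them with GGAAGT, and the first is printed for Fcgr3. The promoter entries were matched by symbol and are credited to RefSeq GRCm38.p6.

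The comparison asked how the receptors, their adaptors and the kinase differed between irradiated and control lung. The 4 receptors had the highest mean differences, 1.46-fold to 1.81-fold higher in Irradiated arrays, Tyrobp was 1.33-fold and Fcer1g 1.18-fold higher, and Hcst and Syk differed by -0.0011 and 0.03 on the log2 scale. None of the 8 passed the test: limma with Benjamini-Hochberg adjustment over all probes called 0 of 8 at an adjusted p under 0.05, where 0.264% of all genes were called higher. At an unadjusted p under 0.05, 5 of 8 were higher (Fcgr1, Fcgr2b, Fcgr3, Fcgr4 and Tyrobp), against 7.36% of all genes. The median difference of the 8 was 0.48 on the log2 scale (0.32 with the authors' normalized value table), and that of all genes was 0.01. In bulk lung RNA, a change in the number of cells of a type and a change in RNA per cell cannot be told apart.

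**Figure D1:**
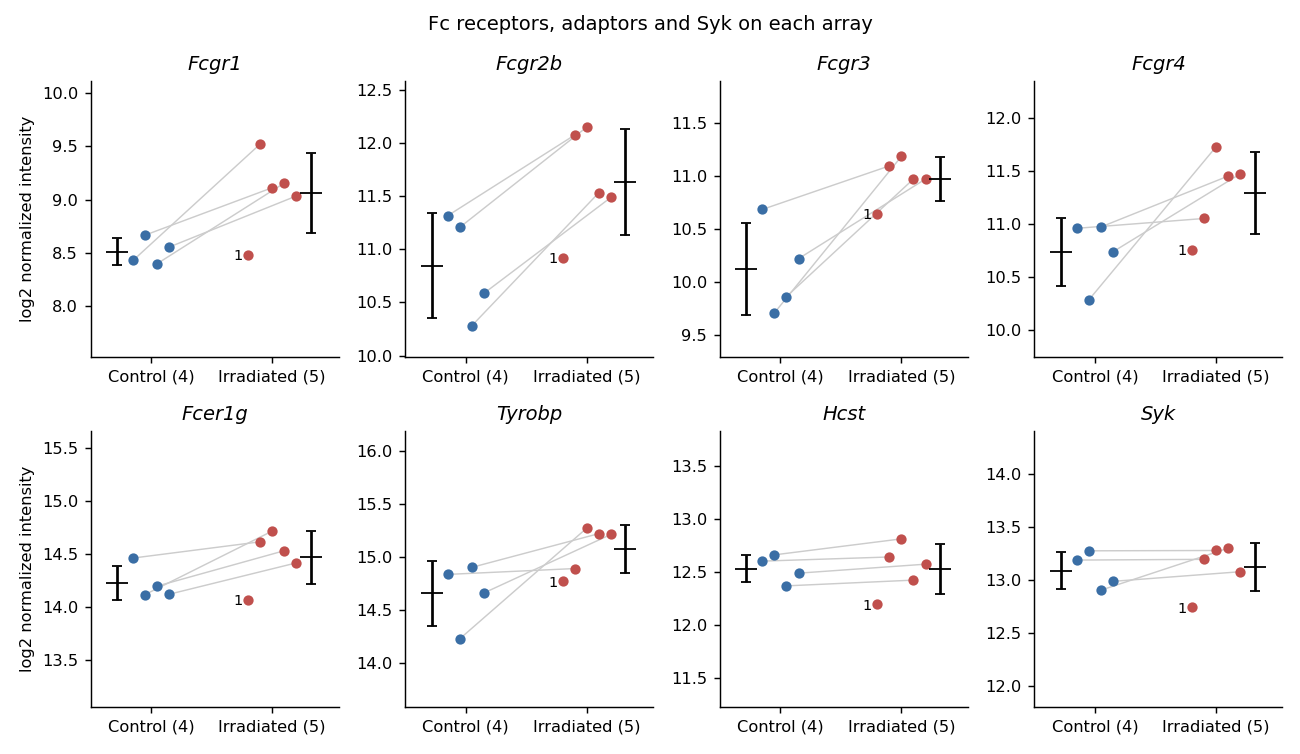
The log2 normalized intensity of each of the 8 genes on the 4 Control arrays (blue) and 5 Irradiated arrays (red). Black bars give the mean ± SD, grey lines join the 4 pairs alike in scanner measures, and the digit 1 marks the array Irradiated 1, which is the lowest Irradiated array in all 8 panels. Each panel spans the same number of log2 units around its own mean, so slopes but not heights can be compared between genes.

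Fcgr3, the low-affinity activating receptor, had the largest difference of the 8. On the Control arrays 1 to 4 its log2 intensity was 10.69, 9.71, 9.87 and 10.22, and on the Irradiated arrays 1 to 5 it was 10.64, 11.10, 11.18, 10.97 and 10.97. All Irradiated arrays but the first were above every Control array, and Irradiated 1 lay just under Control 1, so the groups overlapped by that 1 array. The mean was higher by 0.85 ± 0.20 (SE) on the log2 scale in Irradiated arrays (limma adjusted p = 0.125, exact two-sided permutation p = 0.0159, where the smallest that 4 against 5 arrays can give is 0.00794).

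Fcgr2b, the inhibitory receptor, was at 11.32, 11.21, 10.28 and 10.59 in Control and at 10.92, 12.08, 12.15, 11.53 and 11.49 in Irradiated arrays. Control 1 and Control 2 were well above the other Control arrays, and Irradiated 1 lay below these 2, while the other 4 Irradiated arrays were above all controls. The difference was 0.79 ± 0.29 (SE) on the log2 scale (limma adjusted p = 0.361, exact permutation p = 0.0794).

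Fcgr1 encodes the high-affinity receptor. Its Control arrays kept close together at 8.43, 8.67, 8.40 and 8.55, and its Irradiated arrays were at 8.48, 9.52, 9.11, 9.16 and 9.03. Irradiated 1 fell among the controls and the remaining 4 lay above all of them. The mean difference was 0.55 ± 0.19 (SE, limma adjusted p = 0.333, exact permutation p = 0.0317).

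Fcgr4 encodes an activating receptor for IgG2 subclasses and IgE. It gave 10.96, 10.29, 10.97 and 10.74 in Control and 10.76, 11.05, 11.73, 11.45 and 11.47 in Irradiated arrays. Control 2 was the low array and Irradiated 3 the high one, and Irradiated 2 lay only just above the highest control. The difference was 0.55 ± 0.21 (SE, limma adjusted p = 0.394, exact permutation p = 0.0556).

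Tyrobp, the DAP12 adaptor, was at 14.84, 14.23, 14.90 and 14.66 in Control and at 14.77, 14.89, 15.27, 15.22 and 15.21 in Irradiated arrays. Irradiated 3 to 5 were above every control, whereas Irradiated 1 and 2 were within the control range. The difference was 0.42 ± 0.16 (SE, limma adjusted p = 0.384, exact permutation p = 0.0635). Without Control 2, the lowest array for Tyrobp, it was 0.27.

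Fcer1g, the common gamma chain, was at 14.46, 14.12, 14.20 and 14.12 in Control and at 14.07, 14.62, 14.72, 14.53 and 14.42 in Irradiated arrays. Irradiated 1 was the lowest of all 9 arrays and Irradiated 5 lay below Control 1, so 3 of 5 Irradiated arrays were above all controls. The difference was 0.24 ± 0.13 (SE, limma adjusted p = 0.623, exact permutation p = 0.135).

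Hcst, the DAP10 adaptor, was at 12.60, 12.66, 12.37 and 12.49 in Control and at 12.19, 12.64, 12.81, 12.42 and 12.57 in Irradiated arrays. The groups covered the same range apart from a low Irradiated 1 and a high Irradiated 3. The means were 12.53 ± 0.13 (SD, n = 4) and 12.53 ± 0.23 (SD, n = 5), and the standard error of the difference was 0.13 on the log2 scale (limma adjusted p = 0.9997). Although Hcst sits beside Tyrobp in the genome, their mean differences were 0.42 for Tyrobp and -0.0011 for Hcst, and Tyrobp minus Hcst on the same array, each relative to its Control mean, overlapped between groups at -0.56 to 0.41 in Control and 0.12 to 0.67 in Irradiated arrays.

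Syk, the kinase that docks on phosphorylated ITAMs, was at 13.19, 13.27, 12.90 and 12.99 in Control and at 12.74, 13.19, 13.28, 13.30 and 13.08 in Irradiated arrays. The arrays of the groups were intermixed, with Irradiated 1 lowest. The difference was 0.03 ± 0.13 (SE, limma adjusted p = 0.985, exact permutation p = 0.817).

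Array Irradiated 1 carried much of the overlap. It was the lowest Irradiated array for all 8 genes, a position it held for 18.6% of all genes, and with it no gene of the 8 had every Irradiated array above every Control array (0 of 8, against 3.40% of all genes). Without it, all 4 Fc gamma receptors stood above every control (4 of 8, against 5.47% of all genes), and Fcer1g, Tyrobp, Hcst and Syk still overlapped. As Irradiated 1 was the lowest Irradiated array for these 8 genes, leaving it out favored their count more than the share of all genes. The mean differences without Irradiated 1 were 0.69 for Fcgr1, 0.96 for Fcgr2b, 0.94 for Fcgr3 and 0.69 for Fcgr4 on the log2 scale. Leaving out Control 1 instead left 1 gene of the 8 with groups apart, against 4.99% of all genes.

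Within the 4 pairs of arrays alike in scanner measures, all 8 genes were higher in the Irradiated array in 4 of 4 pairs, as were 17.9% of all genes, but by very different amounts, close to 0 in all pairs of Hcst at 0.04 to 0.15 and in most pairs of Syk. The Fcgr2b differences were 0.76, 0.94, 1.25 and 0.90 on the log2 scale for Irradiated 2 to 5 minus Control 1 to 4. Those of Fcgr1 were 1.10, 0.45, 0.76 and 0.48. Fcgr2b was the most even of the receptors, with an SD of 0.21 over the pairs. Fcgr3 differed by 0.41, 1.47, 1.11 and 0.75, Fcgr4 by 0.09 to 1.44 and Tyrobp by 0.06 to 1.04. These 3 were lowest in the pair of Control 1 and highest in the pair of Control 2, the array where all 3 were lowest. Fcer1g differed by 0.15 to 0.60 and Syk by 0.0031 to 0.39, where 0.39 was the pair of Control 3.

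**Figure D2:**
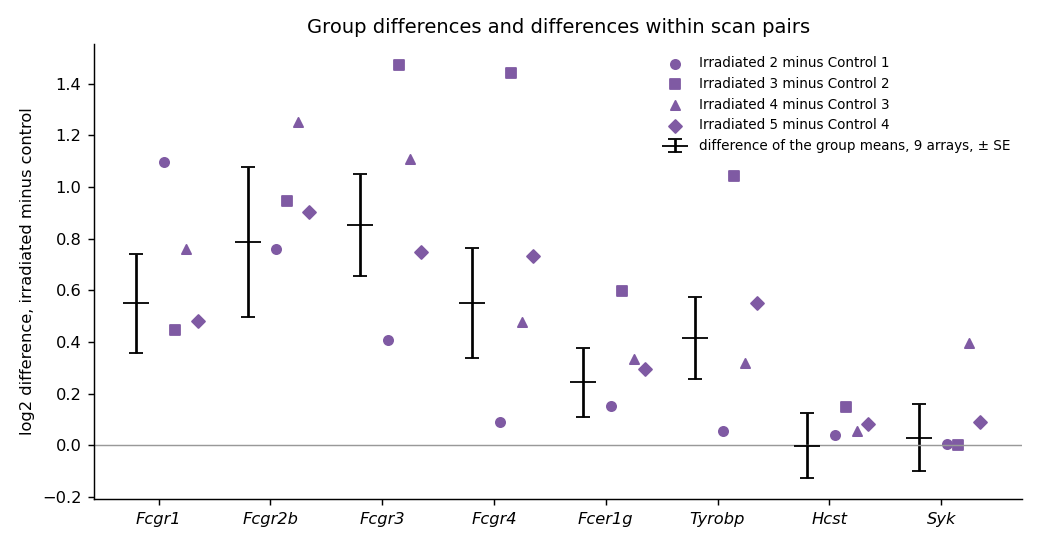
Log2 difference, Irradiated minus Control, for each of the 8 genes. Black bars give the difference of the group means over 9 arrays ± SE, and purple symbols give the 4 single differences within pairs of arrays alike in scanner measures. All symbols lie above 0, and those of Hcst and of most Syk pairs lie close to it.

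The call on the receptors depended on how these pairs entered the fit. With the pairs as a random block in limma, 3 of 8 passed, against 5.64% of all genes called higher: Fcgr3 rose by 0.90 (adjusted p = 0.00954), Fcgr2b rose by 0.89 (adjusted p = 0.0152) and Fcgr1 rose by 0.64 (adjusted p = 0.0245). With the pairs as a fixed block, in which Irradiated 1 has no partner and does not enter the difference, 1 of 8 passed, Fcgr2b, which rose by 0.96 (adjusted p = 0.0257), against 2.28% of all genes. With the authors' normalized value table in place of the scanner values, the differences were 0.50 for Fcgr2b, 0.52 for Fcgr3 and 0.31 for Fcgr4, and none of the 8 passed.

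The receptors were next set against the Fcer1g chain on the same array, each gene relative to its own Control mean, as a description with no test. Fcgr3 minus Fcer1g was 0.33, -0.30, -0.23 and 0.20 on the Control arrays and 0.68, 0.58, 0.57, 0.55 and 0.66 on the Irradiated arrays. The groups were apart, and Irradiated 1, the lowest Irradiated array for Fcgr3 itself, gave the highest value here. Of all genes, 0.855% had every Irradiated array above every Control array when taken relative to Fcer1g. Fcgr1, Fcgr2b and Fcgr4 relative to Fcer1g overlapped between groups. In the authors' normalized value table the Fcgr3 contrast overlapped too, with -0.33 to 0.30 in Control and 0.18 to 0.49 in Irradiated arrays.

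**Figure D3:**
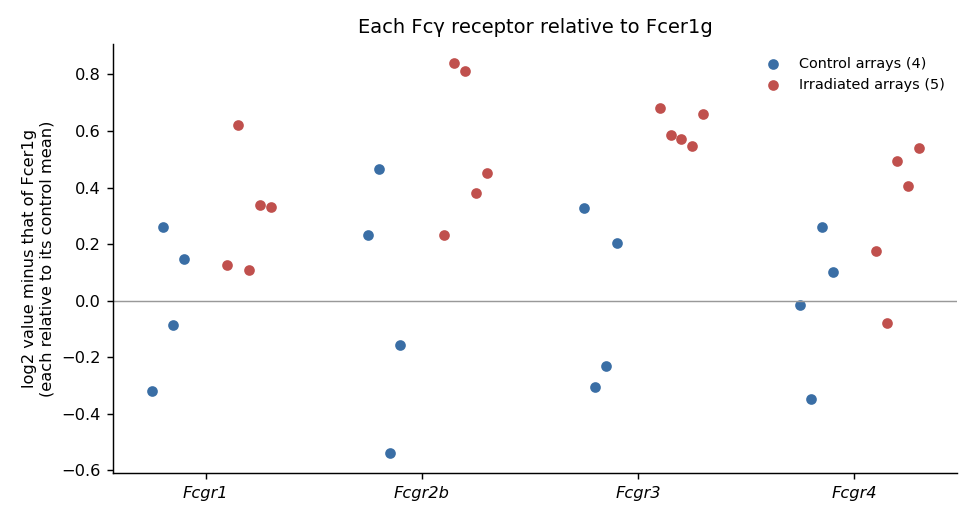
Log2 value of each Fc gamma receptor minus that of Fcer1g on the same array, each relative to its Control mean, for 4 Control (blue) and 5 Irradiated (red) arrays. The 5 Irradiated arrays of Fcgr3 lie between 0.55 and 0.68, above all 4 Control arrays, and the groups of the other 3 receptors overlap.

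The balance of activating receptors to the inhibitory Fcgr2b did not separate the groups. Fcgr3 minus Fcgr2b ranged from -0.77 to 0.36 in Control and from -0.25 to 0.45 in Irradiated arrays. Fcgr1 minus Fcgr2b ranged from -0.55 to 0.45 and from -0.70 to -0.04, and Fcgr4 minus Fcgr2b from -0.81 to 0.80 and from -0.92 to 0.09. Mouse Fcgr2b and Fcgr3 are known to be alike in their extracellular parts, and since the files hold no probe sequences, reading of the 1 transcript by the other's probe was not tested.

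Most macrophage markers had a higher mean in Irradiated arrays, without a call and not all in the same direction. Of 15 macrophage markers, 14 were measured, all well above background on all 9 arrays, and 11 had a positive difference, with a median of 0.55 on the log2 scale. The test called 0 of 14, with 7 higher and 1 lower at an unadjusted p under 0.05, against 7.36% and 4.97% of all genes, and 8 rose with the pairs as a random block, against 5.64% of all genes. Adgre1, the adhesion receptor used to define mouse macrophages, higher by 0.72, and the mannose receptor Mrc1, higher by 0.60, named here because their groups were apart, had limma adjusted p of 0.138 and 0.0650. The brightest of the list, Chil3, was higher by 0.68 ± 0.36 (SE, limma adjusted p = 0.604). The largest difference of the list was negative: the fatty acid binding protein gene Fabp4 differed by -1.59 ± 0.63 (SE, limma adjusted p = 0.409). Fabp4 spanned 11.54 to 14.76 over the Irradiated arrays and enters the marker mean below. The scavenger receptor gene Marco differed by -0.63 ± 0.49 (SE, limma adjusted p = 0.774). Itgax was higher by 0.70 ± 0.17 (SE, limma adjusted p = 0.150), and Car4 differed by -0.04 ± 0.33 (SE). Fabp4, Marco, Itgax and Car4 are named after their values were seen. Which cells the RNA of these genes came from was not tested. The log2 of the summed marker intensity was 17.79 to 18.86 in Control and 18.08 to 18.98 in Irradiated arrays. The mean of the markers relative to the Control mean was -0.35 to 0.38 in Control, -0.19 on Irradiated 1 and 0.25 to 0.57 on Irradiated 2 to 5, so Irradiated 1 was low here as it was for the 8 genes.

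Relative to that macrophage mean, Fcgr3 was again apart between groups, at -0.51 to 0.23 in Control and 0.40 to 0.71 in Irradiated arrays. In the authors' normalized value table it overlapped, at -0.46 to 0.26 and 0.15 to 0.45. Fcgr2b met at the edge, at -0.21 to 0.26 and 0.26 to 0.78, but was apart in that table, at -0.08 to 0.12 and 0.16 to 0.46, so the receptor whose groups were apart changed with the source of the values. Fcgr1, Fcgr4, Fcer1g, Tyrobp, Hcst and Syk overlapped. Of 16 contrasts computed between genes or with the macrophage mean, the groups were apart in 2 with the scanner values, those of Fcgr3, and relative to the macrophage mean 0.596% of all genes outside the marker list had every Irradiated array above every Control array. Hcst relative to the macrophage mean was below 0 on all 5 Irradiated arrays, at -0.46 to -0.15, and Syk likewise, at -0.47 to -0.13, though the Control arrays reached -0.31 and -0.28. How far the number of macrophages enters the receptor differences was not tested.

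Lists of markers of other cells that carry these genes had medians below 0. The neutrophil list had a median difference of -0.52 (7 of 8 measured genes negative, 0 called by limma, 1 lower at an unadjusted p under 0.05, where over all genes 4.97% were lower and 7.36% higher), and its brightest gene Csf3r was lower by 0.20 ± 0.19 (SE, limma adjusted p = 0.832). The monocyte list had a median of -0.13, with 1 of 7 called (against 0.264% of all genes called higher), and 1 higher and 2 lower at an unadjusted p under 0.05. The 2 lower were F13a1 and Itgam, and the groups of F13a1 were apart. The called gene was Fn1, fibronectin, which monocytes express but which fibroblasts of the lung also make, and it rose by 0.90 ± 0.13 (SE, limma adjusted p = 0.0326). NK cell markers, the cells in which Hcst pairs with NKG2D, had a median of -0.12 with 0 of 7 called and none at an unadjusted p under 0.05, and Gzma differed by -0.10 ± 0.29 (SE). Mast cell markers had a median of -0.07 with 0 of 6 called (1 lower at an unadjusted p under 0.05), and Hdc, histidine decarboxylase, differed by 0.08 ± 0.20 (SE).

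limma called no gene of the lymphocyte and platelet lists without a block. B and plasma cell markers had a median of -0.20 (0 of 8 called, 1 higher and 2 lower at an unadjusted p under 0.05), with Jchain at -0.13 ± 1.28 (SE), a gene that spanned 10.11 to 16.86 over the Irradiated arrays. T cell markers had a median of -0.02 (0 of 8, none at an unadjusted p under 0.05), with Thy1 at -0.08 ± 0.23 (SE). Platelet markers had a median of -0.83 (0 of 5 called, 3 lower at an unadjusted p under 0.05 against 4.97% of all genes), with Pf4 at -0.26 ± 0.14 (SE). The chemokine gene Ppbp, whose groups were apart, differed by -0.99 ± 0.17 (SE, limma adjusted p = 0.0512). Gp9, a subunit of the platelet von Willebrand factor receptor, differed by -0.83 ± 0.21 (SE, limma adjusted p = 0.156), also with the groups apart, as were 1.75% of all genes in that direction. Lung tissue markers had a median of 0.04, with 0 of 10 called and none at an unadjusted p under 0.05. Sftpc is counted there although quantile normalization held it at 19.36 to 19.43 in both groups. Scgb1a1 was also bright and narrow, at 19.14 to 19.19 in Control and 19.08 to 19.17 in Irradiated arrays. For these genes the lack of a call carries no weight. Cardiac muscle markers had a median of -1.07 and skeletal muscle markers one of -1.40, each with 0 of 10 called and 1 lower at an unadjusted p under 0.05, and their brightest genes Actc1 and Tnni2 differed by -0.78 ± 0.48 and -1.12 ± 0.85 (SE). Under the random block of scanner pairs, 3 of 5 platelet markers fell (Ppbp, Gp1ba and Gp9), 1 B and plasma cell marker rose (Sdc1) and 2 fell, 1 monocyte marker rose and 2 fell (Fn1, F13a1 and Itgam), and 1 each of the neutrophil (Ngp), mast cell (Kit) and cardiac muscle markers (Myh7) fell, against 5.64% of all genes called higher and 3.81% called lower. As a fixed block, the macrophage list had 6 genes higher, the monocyte list 1 higher, the mast cell and cardiac muscle lists 1 lower each, and the platelet, neutrophil and B and plasma cell lists 0, against 2.28% of all genes called higher and 1.56% called lower. Without a block, 3 of the 6 measured mast cell markers had a positive difference. Which cells the RNA of Kit and Sdc1 came from was not tested.

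The wider pathway was read from 5 lists with 93 genes, of which 91 were measured. limma called 0 of 91 in either direction, with 10 higher and 4 lower at an unadjusted p under 0.05 (7.36% and 4.97% of all genes), and 56 of 91 had a positive difference, with a median of 0.05 on the log2 scale. With the pairs as a random block, 9 rose and 1 fell, against 5.64% of all genes called higher and 3.81% called lower.

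Receptors that pair with ITAM or DAP10 adaptors gave the largest single differences. Of 19 measured, 12 were positive, and the median was 0.06. At an unadjusted p under 0.05, 4 were higher and 2 lower, against 7.36% and 4.97% of all genes. Trem2, a lipid-sensing macrophage receptor that signals through Tyrobp, was at 10.75 to 11.78 in Control and 12.06 to 13.88 in Irradiated arrays, higher by 1.81 ± 0.37 (SE, limma adjusted p = 0.0840). Clec4n (Dectin-2), a fungal mannan receptor that signals through Fcer1g, was at 11.58 to 12.78 and 12.91 to 13.78, higher by 1.22 ± 0.25 (SE, limma adjusted p = 0.0819). In both genes all 5 Irradiated arrays, the first included, were above every control, as they were in Lilra5, higher by 0.60 (limma adjusted p = 0.225). The same held for 3.40% of all genes. With the pairs as a random block, Trem2 rose by 1.95 (adjusted p = 0.00761), Clec4n rose by 1.29 (adjusted p = 0.00198), Cd300c2 rose by 0.53 and Lilra5 by 0.62. Clec1b (CLEC-2), the platelet podoplanin receptor, fell by 0.59 there (adjusted p = 0.0329). It is counted in this list although it is not known to pair with these adaptors. Over all genes, 5.64% were called higher and 3.81% lower in that fit. Of these 5 receptors, only Clec4n passed with the pairs as a fixed block, against 2.28% of all genes called higher.

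The other Fc receptors, among them the IgE, IgM, neonatal and polymeric immunoglobulin receptors, went both ways. Of 12 measured, 4 had a positive difference, the median was -0.23, and limma called none. At an unadjusted p under 0.05, 1 was higher and 0 lower, against 7.36% and 4.97% of all genes. Fcamr, a receptor for IgA and IgM, was higher by 1.07 ± 0.37 (SE, limma adjusted p = 0.326) and was well above background on 8 of 9 arrays. Fcrl1, a B cell Fc receptor homolog, differed by -0.31 ± 0.17 (SE, limma adjusted p = 0.597). Ms4a2, the beta chain of the mast cell IgE receptor, was well above background on 2 of 9 arrays.

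Kinases and adaptors downstream of ITAMs had a median of 0.08, with 21 of 30 positive. Against 7.36% of all genes, a similar share, 2 of the 30 were higher at an unadjusted p under 0.05. These were Pik3r5, a regulatory subunit of phosphatidylinositol 3-kinase gamma, higher by 0.48 ± 0.16 (SE, limma adjusted p = 0.307), and Malt1, the paracaspase of the Card9 and Bcl10 complex, higher by 0.55 ± 0.23 (SE, limma adjusted p = 0.452). Under the random block of scanner pairs both passed, rising by 0.55 (adjusted p = 0.0245) and 0.66 (adjusted p = 0.0359). That is 2 of 30, close to the 5.64% of all genes called higher in that fit. Under the fixed block neither Pik3r5 nor Malt1 passed, and Lat, a scaffold adaptor for phospholipase C gamma, rose by 0.60 (adjusted p = 0.0403). That is 1 of 30, against 2.28% of all genes called higher. Syk itself thus lay close to the middle of the kinases that act with it.

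Inhibitory receptors and their phosphatases and adaptors had a median of 0.10, with 15 of 23 positive. At an unadjusted p under 0.05, 3 were higher and 1 lower, against 7.36% and 4.97% of all genes. Siglec1 (sialoadhesin), a macrophage adhesion receptor placed in this list as a Siglec although it is not known to carry an ITIM, was at 8.13 to 8.77 in Control and 8.82 to 9.26 in Irradiated arrays, higher by 0.66 ± 0.16 (SE, limma adjusted p = 0.159). Dok1, an adaptor that restrains Ras signaling, was higher by 0.31 ± 0.11 (SE, limma adjusted p = 0.341), also with the groups apart. Over all genes, 3.40% were apart in that direction. With the pairs as a random block Siglec1, Dok1 and Lilrb4a passed (3 of 23, against 5.64% of all genes called higher). As a fixed block only Lilrb4a of these passed (1 of 23, against 2.28% of all genes). The antigen receptor chains of T and B cells had a median of 0.04, with 4 of 7 positive. Cd79b, the B cell receptor beta chain, differed by -0.38 ± 0.14 (SE, limma adjusted p = 0.358) and Cd79a by -0.27 ± 0.19 (SE, limma adjusted p = 0.728). Cd79b was the only gene of the 7 at an unadjusted p under 0.05, where 4.97% of all genes were lower.

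**Figure D4:**
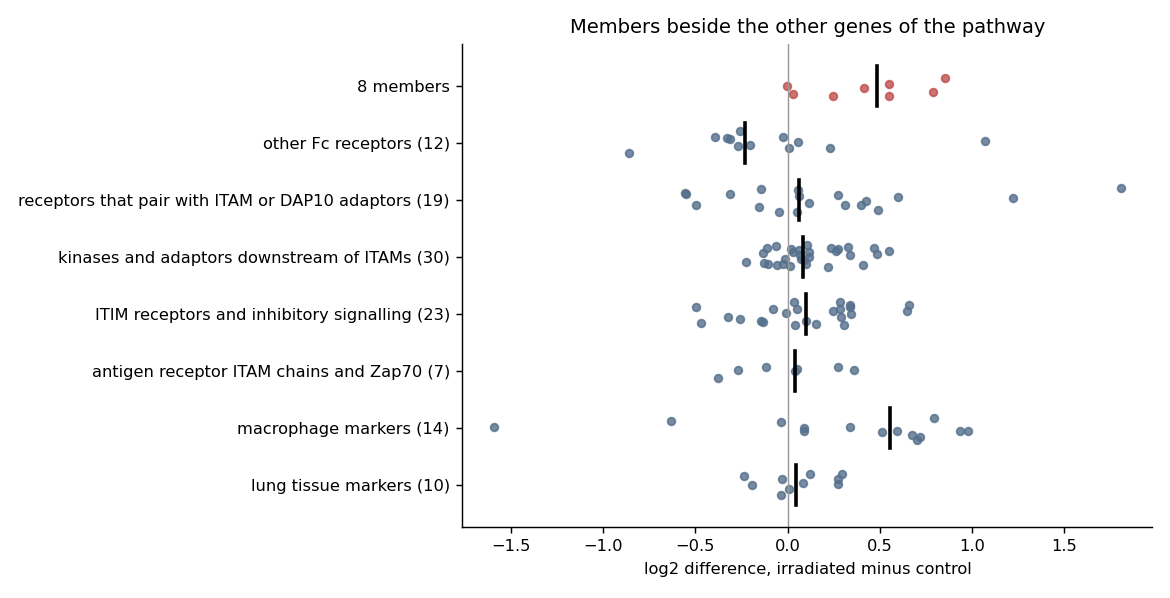
Log2 difference, Irradiated minus Control, of the 8 genes (red) and of the genes of 5 pathway lists and 2 marker lists (grey-blue, number of measured genes in parentheses), and black bars mark medians. The median is 0.48 for the 8 genes, between -0.23 and 0.10 for the pathway lists, 0.55 for macrophage markers and 0.04 for lung tissue markers, and Trem2 is the point at 1.81.

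Genes with a pattern over the 9 arrays most like that of the adaptors were found by the mean absolute difference from the adaptor, each gene relative to its Control mean, over 15260 genes well above background on all arrays. For Fcer1g these were Nrros, which encodes a myeloid partner of latent TGF-beta, at 0.0482 and the cytokine gene Osm at 0.0628, where the median gene was at 0.303. For Tyrobp they were the carbonic anhydrase gene Car13 at 0.0660, the phospholipid transporter gene Abcb4 at 0.0914 and Fcgr4 at 0.106, where the median gene was at 0.385. Fcgr4 thus followed Tyrobp more closely than it followed Fcer1g, the chain it pairs with, for which the distance was 0.269. Fcgr3 was also nearer to Tyrobp than to Fcer1g, at 0.354 against 0.457. Fcgr1 and Fcgr2b were about as far from the one as from the other, at 0.255 against 0.260 and 0.454 against 0.457. Fcgr2b was farther from either than the median gene. The distance includes the size of the group difference, 0.42 for Tyrobp and 0.24 for Fcer1g. The share of all genes nearer to Tyrobp than to Fcer1g was not computed. Fcgr2b and Fcgr3 were the farthest of the 8 genes from Fcer1g, both at 0.457.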

How the data were processed

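Total RNA of mouse lung was amplified, labeled and hybridized to Agilent single-color arrays by the authors. The deposited scanner files give each spot's intensity as Feature Extraction processed signal, for which aligner and genome build do not apply. The authors' normalized value table, also a linear intensity per the deposited values, was used as an alternative. The methods state a background filter, quantile normalization and averaging of duplicated spots.

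Control spots and spots with outlier marks were left out. Probes above 1.4 times the local background on at least 4 arrays were kept (39303 of 39429, 88 with a missing value), quantile normalized, taken as log2 and tested with limma 3.58.1 (R 4.3.3), using an intensity trend and Benjamini-Hochberg adjustment at 0.05. The brightest probe stood for a gene. Single genes were also given an exact two-sided permutation test. The test was checked on simulated data. Precision is limited by the few arrays.

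The 8 genes, the pathway and marker lists and the tests were chosen with earlier results of these data known. Besides the 8, the text names, by rule, of each pathway list the genes past the threshold or else the 2 with the smallest p, of each marker list the brightest gene, and the 3 genes nearest to Fcer1g and to Tyrobp (1 of those nearest to Fcer1g is not reported here). Others are named where a count or a fit singles them out, after their values were seen. Alternatives covered background correction, scaling, filters, the value table, the variance model, array weights, the scanner pairs as a block, the replicate block, the choice of probe and each array left out. The differences between genes on 1 array, and their values under other scalings and in the value table, were added after seeing the data. Clec7a, Klrc2, Cd68, Ly6c2, Ly6g and Tpsab1 were not matched by accession and are not analysed here.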

Additional observations from a re-analysis of the deposited data

Results flagged for a closer look

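Each of the 8 genes and each list was examined per group, 48 sets of values in all. In 5 of them (10.4%) a single array lay away from the rest under Dixon's criterion, and about 1 in 20 would do so by chance. None was a value of the 8 genes. All values are means of a marker list on the log2 scale, relative to the Control mean. Mast cell markers were at -0.526 on Control 2, against 0.126 to 0.204 on the other Control arrays. B and plasma cell markers were at -0.618 on Control 3, against 0.194 to 0.215, and platelet markers on the same array were at 0.348, against -0.142 to -0.0864. Skeletal muscle markers were also high on Control 3, at 4.155, against -1.69 to -1.06. Cardiac muscle markers were at -4.923 on Irradiated 1, against -0.528 to 0.225 on the other Irradiated arrays. Irradiated 1 is the array on which all 8 genes were lowest in its group. Whether the tissue sampled on it accounts for that was not tested.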

How the results depend on the processing

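Fcgr1, Fcgr2b, Fcgr3, Fcgr4, Fcer1g and Tyrobp kept a positive difference under all 20 alternatives (0.43 to 0.69, 0.50 to 0.96, 0.52 to 1.04, 0.31 to 0.69, 0.18 to 0.35 and 0.27 to 0.49 on the log2 scale). The count of the 8 past the threshold was 1 with the scanner pairs as a fixed block, 3 with them as a random block and 0 otherwise. For the 91 pathway genes these counts were 3 and 10, and 0 to 4 when single arrays were left out, the 4 (Trem2, Clec4n, Lilrb4a and Lat) without Irradiated 1. The count of the 8 with groups apart was 0 to 4 when single arrays were left out, 1 without Control 1 and 4 without Irradiated 1. Hcst and Syk have no settled sign: Hcst was 0.0151 with 75th percentile scaling, 0.0384 with array weights, 0.0820 with the fixed and 0.0492 with the random block, and -0.0710 to 0.0818 with single arrays left out, and Syk -0.0315 to 0.1239 with single arrays left out. Same-numbered arrays did not deviate together (correlations 0.096, -0.018, -0.0086 and -0.15, against 0.33, 0.18, 0.33 and 0.43 for scanner pairs), so the numbers gave no sign of a pairing. What the numbers stand for was not tested. With the replicate block 0 of the 8 passed and their median difference was 0.44. Genes called higher over the whole array numbered 52, between 40 and 82 under other scalings and filters, 12 with the authors' table, 15 without the trend, 72 with array weights, 1111 with the random and 450 with the fixed block, 1 with the replicate block, 81 with the mean of all probes, and 4 to 218 with single arrays left out, 218 without Irradiated 1. The cause of these moves was not tested.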
